A study of Mus musculus with 28 samples.

Results

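PPARα, the fatty acid-sensing nuclear receptor encoded by *Ppara*, and 9 of its known fasting targets in the liver were followed in 28 mouse liver libraries, 7 from each sex of wild-type (WT) and SIRT6-overexpressing transgenic (tg) mice. The 10 genes are *Ppara*, *Fgf21*, *Pdk4*, *Angptl4*, *Vnn1*, *Acot1*, *Acot2*, *Acot3*, *Fabp1* and *Cd36*. They were chosen by name, as the rows whose Ensembl identifier maps to these symbols, and are 10 of 49585 features in the count table. Each of the 10 passed the filter on low counts, which kept 21583 genes. All mice were C57BL/6JOlaHsd, aged 5 to 7 months, on standard chow, and were killed in the afternoon after a short daytime fast. Littermates were compared, WT and tg mice shared cages, and the tg mice came from 1 transgenic line. The promoter that drives the transgene is not given in the sources used here. No group of fed mice was analysed here, so the values are levels in briefly fasted livers and not responses to fasting.

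During a fast, fatty acids released from adipose tissue reach the liver and bind PPARα, which pairs with a retinoid X receptor (RXR) on DNA. The pair binds a direct repeat with a spacing of a single base, called DR1. Its targets carry fatty acids into and through the hepatocyte, burn them in mitochondria and peroxisomes, and send out hormones such as FGF21. Many of the same genes also answer to other signals, among them glucocorticoids, insulin, growth hormone and sex steroids.

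Total counts ranged from 18758863 to 35393069 per library. Levels are given as counts scaled to a common library total (CPM) with TMM factors, which balance the libraries on the bulk of their genes, as mean ± SD of 7 mice or as the lowest, median and highest of 7. Differences are log2 fold changes from edgeR's quasi-likelihood test. P-values were adjusted by Benjamini-Hochberg over all 21583 genes, and genes were called at an adjusted p under 0.05. The standard error (SE) was worked back from that test, as the unshrunken log2 fold change divided by the square root of the F statistic. *Sirt6* itself served as the check of the labels. It lay between 1.69 and 6.22 CPM in the 14 WT libraries, between 198 and 358 CPM in male tg livers and between 16.4 and 50.2 CPM in female tg livers. Male and female tg livers thus differed in *Sirt6* level without overlap. Sex and transgene level therefore cannot be told apart where genotype effects or tg livers are compared between the sexes. The liver identity was checked with *Alb*, which was at least 68240 CPM in every library. Male WT mouse 2 and female WT mouse 2 had summed skeletal muscle markers of 11.8 and 37.9 CPM, and no other library exceeded 1.52 CPM. Among adipocyte markers, *Adipoq* was at most 2.58 CPM in any library. The 7 adipocyte markers tested summed to 1147 to 2833 CPM in male WT and 3136 to 5671 CPM in male tg livers. In females they summed to 872.8 to 1868 CPM in WT and 1601 to 2263 CPM in tg livers. Such a sum weighs the most abundant markers most. By gene, 2 of the 7 had a positive log2 fold change of tg against WT in males (median -1.30). In females 4 of the 7 did (median 0.44).

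Sequence is shown first for the targets with the closest DR1 match, because it is what the receptor could bind. The motif searched was 2 copies of AGGTCA in the same direction with any 1 base between them, 13 bases in all, on both strands of the 300 bases around each RefSeq start site (GRCm38.p6), and 8 of the 10 genes had an entry. *Angptl4* and *Vnn1* had none. The 60 bases from 110 to 51 before the start are printed 5′ to 3′ on the gene's strand, with the closest match in capitals. In both genes the match lies on the opposite strand.
Fabp1, chr6:71199769-71199828, plus strand: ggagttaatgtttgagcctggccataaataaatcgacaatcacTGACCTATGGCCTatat
Cd36, chr5:17835947-17836006, minus strand: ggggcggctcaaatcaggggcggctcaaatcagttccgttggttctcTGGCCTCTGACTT
The *Fabp1* match has 1 mismatch and begins 67 bases before the start. Matches with at most 1 mismatch occur in 0.554% of 32851 promoters. The *Cd36* match has 2 mismatches and begins 63 bases before the start, and 3.86% of promoters hold one at least as close. The RefSeq start used for *Cd36* lies inside the gene span given below, not at its upstream end. Whether these livers use that start was not tested. *Acot2* and *Acot3* came no closer than 3 mismatches, which 24.6% of promoters reach, and *Acot1*, *Fgf21*, *Pdk4* and *Ppara* no closer than 4. A match is a description of these letters only, and sites farther from the start lie outside the window.

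The first question was whether SIRT6 overexpression changed these genes. *Fabp1* rose in male tg livers, *Angptl4* rose by a smaller and less secure margin, and the other 8 did not pass the test in males. None of the 10 passed it in females. In males 2 of 10 members were called, both higher, where 20.7% of all genes tested were called in either direction and 9.68% were called higher. The members' share in males was thus near the background. In females 0 of 10 were called, where 0.0278% of all genes were called, which is 6 genes (0.0232% higher and 0.00463% lower). At an unadjusted p under 0.05, 1212 of 21583 genes and 1 of the 10 members (*Fabp1*) passed in females, and DESeq2 called 44 genes and 0 members there. The median log2 fold change of the members was 0.23 in males (all genes 0.06) and 0.10 in females (all genes 0.00).

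**Figure D1:**
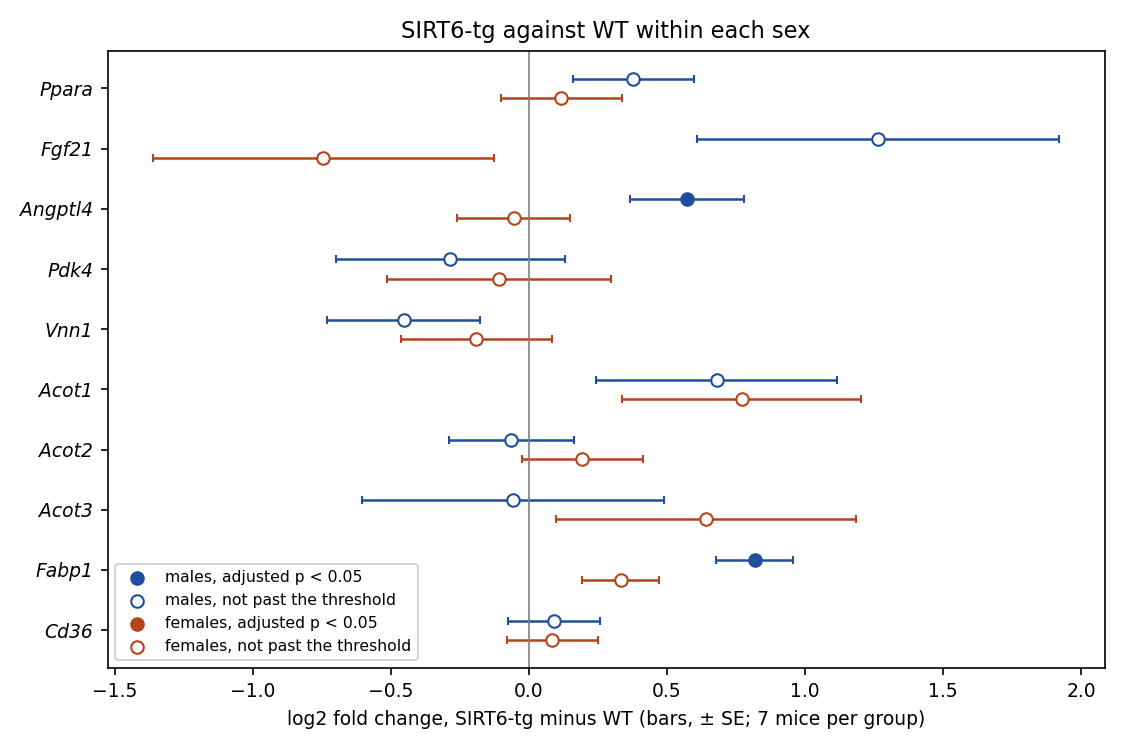
log2 fold change of tg against WT for each of the 10 genes (x axis), in males (blue) and females (red-brown), with bars of ± 1 SE and filled points where the adjusted p was under 0.05. *Fabp1* at 0.82 and *Angptl4* at 0.57 in males are the filled points, and no female point is filled.

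*Fabp1* (chr6:71199827-71205023, plus strand, GRCm38) encodes the liver fatty acid-binding protein, which carries fatty acids through the hepatocyte cytosol. Its lowest, median and highest levels were 2059, 2686 and 3450 CPM in male WT livers and 3710, 4614 and 6458 CPM in male tg livers. Every male tg library lay above every male WT library, which was so for 6.98% of all genes tested in either direction. The log2 fold change was 0.82 (SE 0.14, edgeR adjusted p = 6.83e-05), a 1.76-fold difference. Female livers ran from 2432 to 3648 CPM in WT and from 2599 to 4844 CPM in tg mice, and the female groups overlapped. In the female comparison 0 of the 10 members were without overlap, as were 0.0834% of all genes. There the log2 fold change was 0.33 (SE 0.14, edgeR adjusted p = 0.764). The male effect exceeded the female one by 0.49 (SE 0.20, edgeR adjusted p = 0.165), which did not pass the threshold.

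The scaling matters for the size of this difference, since the TMM factors of the male groups did not overlap (1.06 to 1.17 for WT, 0.821 to 0.993 for tg). With library size alone the median of all genes in the male comparison moved to -0.22 and *Fabp1* had 0.52 (edgeR adjusted p = 0.00132). Scaled to 15 secreted hepatocyte proteins, the median was -0.24 and *Fabp1* had 0.50 (edgeR adjusted p = 0.00220), so that it kept its direction and call under both. Other cell types also moved with genotype in males. Of 13 macrophage and Kupffer cell markers 12 fell, with summed levels of 542.9 to 1757 CPM in WT and 445.3 to 759.5 CPM in tg livers. Of 10 T cell markers 10 fell, from 18.9 to 54.0 CPM summed in WT to 6.58 to 10.2 CPM in tg livers. Of 8 stellate cell and fibroblast markers 7 fell (399 to 627.5 against 280.6 to 374.4 CPM summed). Of 15 secreted hepatocyte proteins 10 rose (116100 to 154200 against 137600 to 187600 CPM summed). Of 10 endothelial markers 2 fell, of 6 cholangiocyte markers and 5 skeletal muscle markers tested 0 were called, of 7 adipocyte markers tested 1 rose and 1 fell, and of 5 erythroid markers 1 rose. In whole liver, fewer cells of a type and less RNA per cell cannot be told apart, and the part of these shifts in the *Fabp1* result was not tested beyond the rescaling above.

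*Angptl4* (chr17:33773750-33781830, minus strand) encodes a secreted inhibitor of lipoprotein lipase that spares circulating triglycerides for other tissues during a fast. Male WT livers ran from 52.3 to 116 CPM with a median of 74.5, and male tg livers from 82.2 to 174 CPM with a median of 99.3. These ranges overlap, with 2 tg libraries above all WT libraries. The log2 fold change was 0.57 (SE 0.21, edgeR adjusted p = 0.0467). The call was lost under every other scaling, without a filter on low counts, with only the male groups fitted (0.54, adjusted p = 0.0589), with DESeq2 (0.53, adjusted p = 0.0581) and without the libraries that held muscle markers (0.50, adjusted p = 0.106). It was also lost when any of 18 of the 28 libraries was left out, with log2 fold changes of 0.43 to 0.60 and adjusted p of 0.0504 to 0.148. The 10 libraries that could be left out without losing it were male WT 6, male tg 1, 2, 3 and 7, female WT 1, 3 and 4, and female tg 4 and 5. Female levels were 106 ± 27.3 CPM in WT and 102 ± 31.3 CPM in tg livers, a log2 fold change of -0.06 (SE 0.20). The difference between the sexes was 0.63 (SE 0.29, edgeR adjusted p = 0.237).

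*Fgf21* (chr7:45613886-45615490, minus strand), the hepatokine of the fasted liver, was the scarcest member. The median was 0.803 CPM in male WT, 2.02 in male tg, 1.94 in female WT and 1.83 CPM in female tg livers. Single mice set its means. Female WT mice 1 and 3 had 9.94 and 9.56 CPM while the other 5 had 0.922 to 2.54 CPM, and male tg mouse 6 had 6.97 CPM. Log2 fold changes of tg against WT were 1.27 in males (SE 0.66, edgeR adjusted p = 0.182) and -0.75 in females (SE 0.62, adjusted p = 1.00). They differed by 2.01 (SE 0.90, edgeR adjusted p = 0.221), with an interval of 0.25 to 3.78.

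For *Ppara* itself (chr15:85734983-85802819, plus strand) the levels were 90.8 ± 26.1 CPM in male WT, 118 ± 20.2 in male tg, 111 ± 42.2 in female WT and 121 ± 39.3 CPM in female tg livers. The ranges overlapped in every comparison. Genotype effects were 0.38 in males (SE 0.22, edgeR adjusted p = 0.237, interval -0.05 to 0.81) and 0.12 in females (SE 0.22, interval -0.31 to 0.54). Female WT livers were widely spread, with mice 1, 2 and 4 at 65.9 to 76.9 CPM, mouse 3 at 108 CPM and mice 5, 6 and 7 at 139 to 166 CPM.

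*Pdk4* (chr6:5483351-5496309, minus strand), the kinase that shuts pyruvate dehydrogenase when fat is burned, had 7.16 ± 2.35 CPM in male WT and 5.88 ± 4.55 CPM in male tg livers. Male tg mice 1 and 6, at 12.9 and 12.01 CPM, stood above all male WT mice, and male tg mouse 2, at 2.04 CPM, below them. The log2 fold change was -0.29 (SE 0.42, edgeR adjusted p = 0.696). Male WT mouse 4 had 2.60 CPM against 6.40 to 9.45 CPM in the other male WT mice. *Cd36* (chr5:17781690-17888801, minus strand), the fatty acid translocase of the cell surface, had small differences with genotype in both sexes. Its log2 fold changes were 0.09 in males (SE 0.17, interval -0.23 to 0.42) and 0.08 in females (SE 0.17, interval -0.24 to 0.41), with edgeR adjusted p of 0.760 and 1.00.

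*Vnn1* (chr10:23894688-23905343, plus strand) encodes vanin 1, a pantetheinase that recycles the vitamin part of coenzyme A. It had a log2 fold change of -0.45 in males (SE 0.28, edgeR adjusted p = 0.268) and -0.19 in females (SE 0.27). *Acot1* and *Acot2* are the cytosolic and mitochondrial members of a family of thioesterases that split acyl-CoA into free fatty acid and coenzyme A, and *Acot3* is a peroxisomal member. *Acot1* had similar values in both sexes, 0.68 in males (SE 0.44, edgeR adjusted p = 0.299) and 0.77 in females (SE 0.43, edgeR adjusted p = 0.962). *Acot2* had -0.06 (SE 0.23) and 0.19 (SE 0.22). *Acot3* had -0.06 in males (SE 0.55) and 0.64 in females (SE 0.54). The male value of *Acot3* rests on male WT mouse 5, at 129 CPM where the other 6 were at 8.25 to 25.15 CPM. Without that library it was 1.09 (edgeR adjusted p = 0.0650). Alternatives changed its sign in 5 of 38 cases. When the male and female genotype effects were tested against each other, edgeR and DESeq2 each called 0 of the 10 members. Over all genes edgeR called 5.05% there, 1.2% with the larger value in males and 3.84% with the smaller. At an unadjusted p under 0.05, 4055 of 21583 genes and 3 of the 10 members (*Fgf21*, *Angptl4* and *Fabp1*) passed.

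**Figure D2:**
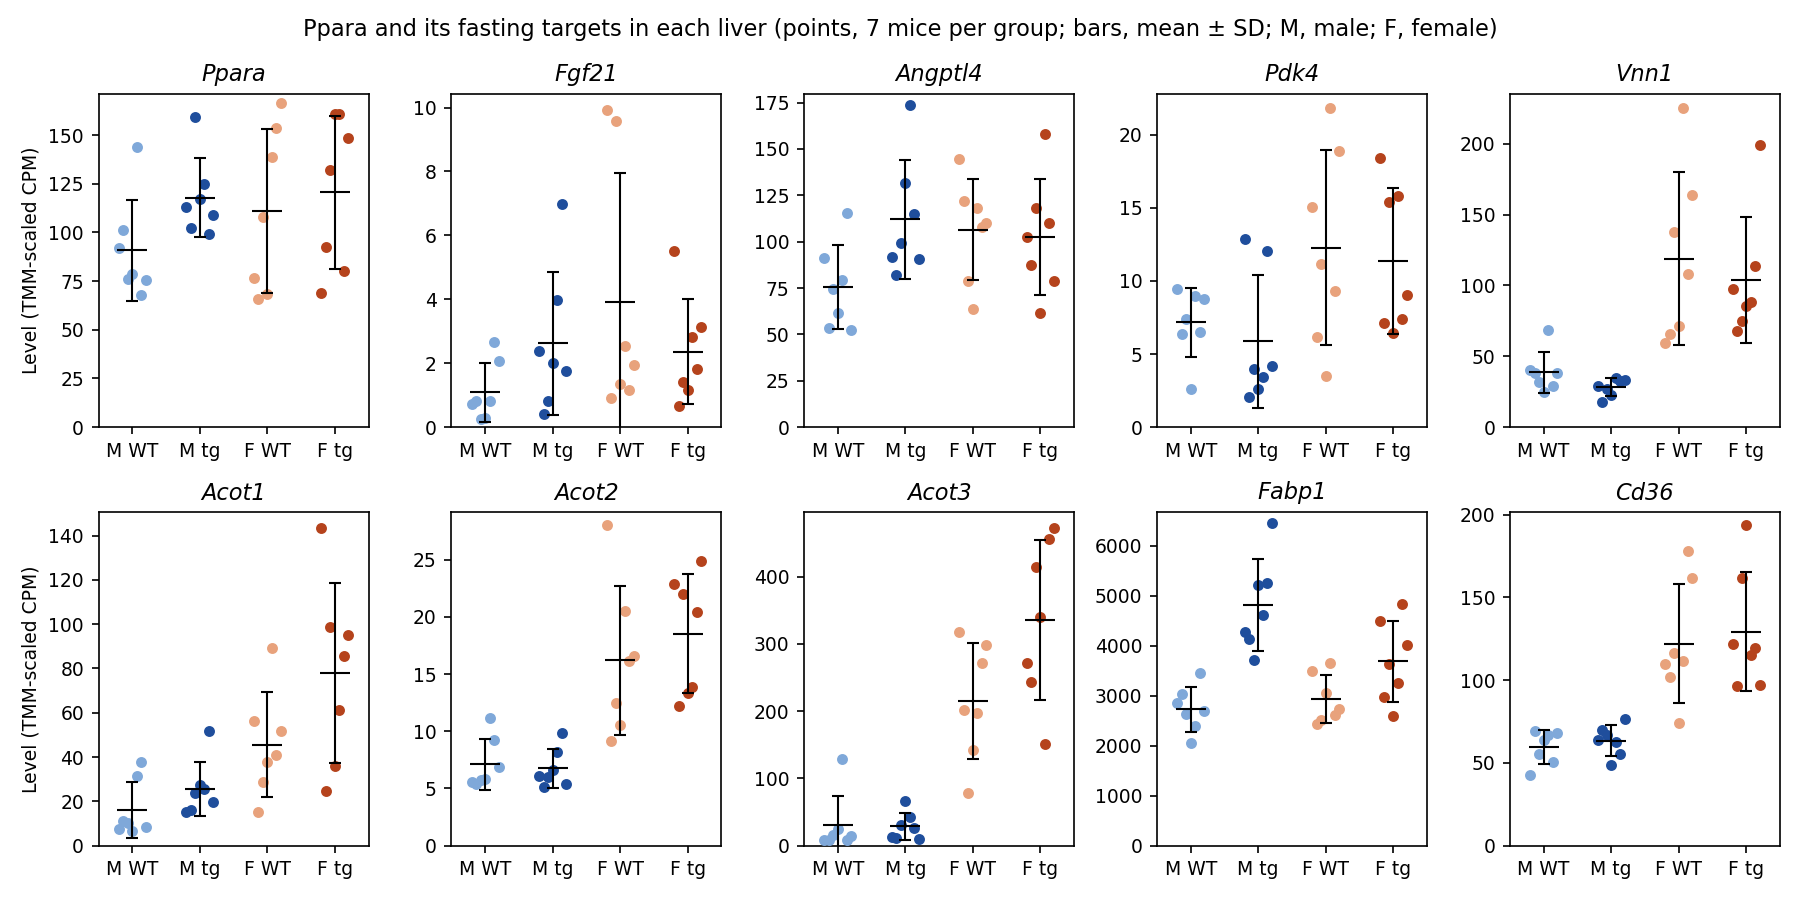
Level of each gene (y axis, TMM-scaled CPM) in each of the 28 livers by group, with the mean and ± 1 SD of 7 mice as bars, cut off at 0 where the SD exceeds the mean. *Fabp1* in male tg livers (3710 to 6458 CPM) stands above male WT livers, and *Vnn1*, *Acot1*, *Acot2*, *Acot3* and *Cd36* have higher means in both female groups than in both male groups.

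The larger differences among these genes lay between the sexes. In WT livers 5 of the 10 members were lower in males than in females, namely *Vnn1*, *Acot1*, *Acot2*, *Acot3* and *Cd36*, and 0 were higher. Over all genes tested, 12.4% were called in this comparison, 5.71% lower and 6.65% higher in males. In tg livers the same 5 genes were lower in males and *Fabp1* was higher, where 23.1% of all genes were called, 10.2% of all genes lower and 12.9% higher. The members' median log2 difference, male minus female, was -1.11 in WT livers (all genes -0.00) and -0.99 in tg livers (all genes -0.04). Each of the 5 genes kept its direction under every alternative tried. *Vnn1*, *Acot2*, *Acot3* and *Cd36* also kept the call in both genotypes under all of them. The WT and tg comparisons use different mice. The male WT and female WT libraries also enter the genotype comparisons above.

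*Acot3* (chr12:84052144-84060402, plus strand) had the widest gap. Male WT livers had 8.25, 13.8 and 129 CPM as lowest, median and highest, and female WT livers 77.9, 201 and 317 CPM. Of the 7 male WT mice 6 lay below every female WT mouse, and male WT mouse 5 lay among the females. In tg mice the ranges were 9.44 to 66.8 CPM in males and 151 to 472 CPM in females and did not overlap. The log2 differences were -2.85 (SE 0.58, edgeR adjusted p = 0.00140), which is 7.21-fold lower in males, and -3.55 in tg livers (SE 0.60, edgeR adjusted p = 1.11e-04), which is 11.7-fold lower. Without male WT mouse 5 the WT difference was -3.997 (edgeR adjusted p = 1.09e-06).

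*Acot2* (chr12:83987861-83993873, plus strand) ran from 5.43 to 11.1 CPM in male WT, 9.18 to 28.01 in female WT, 5.16 to 9.86 in male tg and 12.2 to 24.9 CPM in female tg livers. Its log2 differences were -1.19 (SE 0.22, edgeR adjusted p = 4.56e-04) and -1.45 (SE 0.23, adjusted p = 2.70e-05). *Acot1* (chr12:84009490-84018371, plus strand) was more spread out. Male WT mice 5 and 6, at 31.3 and 37.8 CPM, lay within the female WT range of 15.1 to 89.1 CPM, and the other 5 male WT mice, at 6.40 to 11.0 CPM, lay below it. The log2 differences were -1.51 (SE 0.44, edgeR adjusted p = 0.0231) and -1.60 (SE 0.44, adjusted p = 0.00971). The WT call of *Acot1* was lost when only the groups compared were fitted (adjusted p = 0.0595). It was lost without any of male WT mice 1, 2, 3, 4 and 7 and female WT mouse 5, with values of -1.41 to -1.25 and adjusted p of 0.0511 to 0.0722.

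In *Vnn1* male WT livers had 24.8 to 68.4 CPM and female WT livers 59.7 to 225 CPM, with 6 of 7 male mice below all females. The log2 difference was -1.62 (SE 0.28, edgeR adjusted p = 2.06e-04), and in tg livers, where the groups did not overlap, it was -1.88 (SE 0.28, adjusted p = 2.12e-05). *Cd36* was the member whose sexes were separated in both genotypes. Male WT livers had 42.6 to 69.3 CPM against 74.2 to 178 CPM in female WT livers, and male tg livers 48.7 to 76.7 CPM against 96.4 to 194 CPM in female tg livers. Non-overlap of the ranges occurred for 2.96% of all genes in WT and 6.13% in tg livers. The log2 differences of *Cd36* were -1.04 (SE 0.17, edgeR adjusted p = 6.51e-05) and -1.03 (SE 0.17, adjusted p = 4.36e-05).

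The remaining members showed smaller or less certain sex differences. *Fgf21* had -1.85 in WT livers (SE 0.65, edgeR adjusted p = 0.0609). It passed the threshold with DESeq2 (-1.82, adjusted p = 0.0288), with the stricter filter of filterByExpr (-1.85, adjusted p = 0.0387), and without male WT 6, female WT 2, female WT 4 or female WT 6 (adjusted p 0.0379 to 0.0486). In tg livers *Fgf21* had 0.16 (SE 0.63). *Pdk4* had -0.78 in WT (SE 0.41, edgeR adjusted p = 0.244) and -0.95 in tg livers (SE 0.42, adjusted p = 0.0981). The tg difference passed with DESeq2 (-0.98, adjusted p = 0.0416) and without male tg 1 (-1.27, adjusted p = 0.0297) or male tg 6 (-1.22, adjusted p = 0.0399). *Angptl4* had -0.50 (SE 0.21, edgeR adjusted p = 0.117) and 0.13 (SE 0.20), and without male WT 6 its WT difference was -0.63 and passed (adjusted p = 0.0425). *Ppara* had -0.29 (SE 0.22) and -0.03 (SE 0.22), with intervals of -0.72 to 0.13 and -0.46 to 0.40. *Fabp1* had -0.10 in WT (SE 0.14) and 0.38 in tg livers (SE 0.14, edgeR adjusted p = 0.0463). That tg call was lost under every other scaling (0.28 to 0.36, adjusted p 0.0675 to 0.122), without a filter on low counts (adjusted p = 0.0544), with only the tg groups fitted (adjusted p = 0.0709) and without any of 12 libraries (adjusted p 0.0501 to 0.120). The 12 were male WT 7, male tg 4, 5, 6 and 7, female WT 4 and 7, and female tg 2, 3, 4, 5 and 7.

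**Figure D3:**
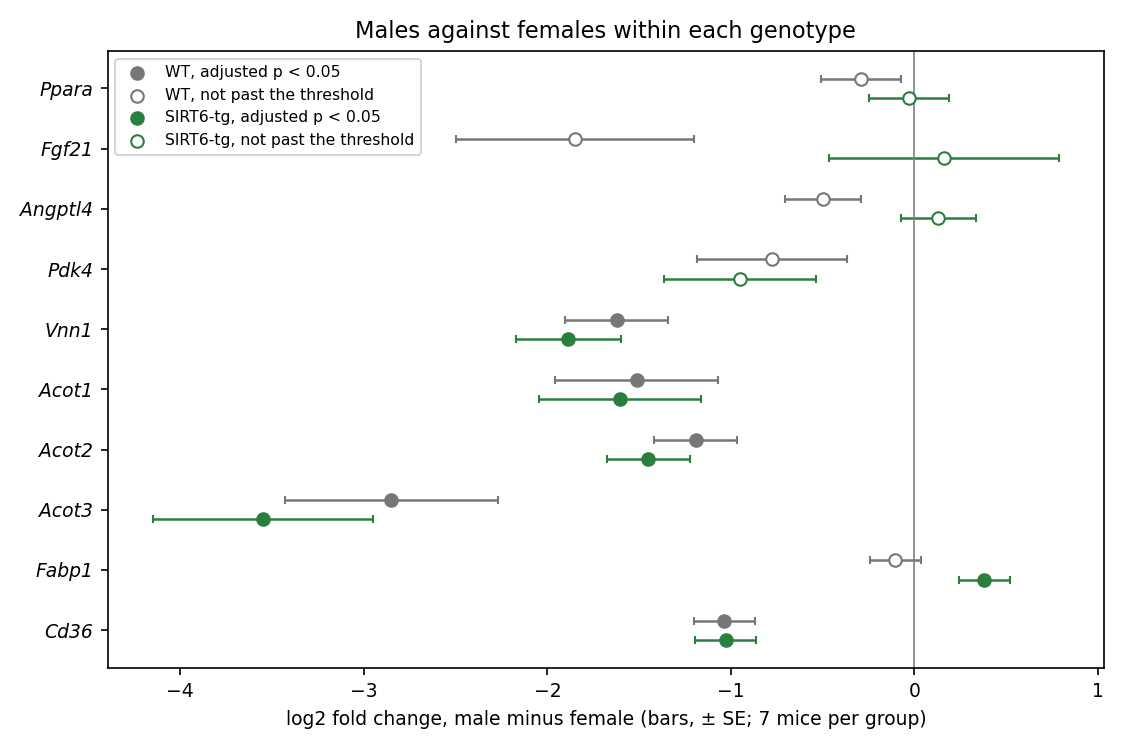
log2 fold change of males against females for each gene (x axis), in WT (grey) and tg livers (green), with bars of ± 1 SE and filled points where the adjusted p was under 0.05. The filled points of *Vnn1*, *Acot1*, *Acot2*, *Acot3* and *Cd36* lie between -3.55 and -1.03 in both genotypes, and *Fabp1* in tg livers is at 0.38.

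*Acot1*, *Acot2* and *Acot3* are neighbours in a cluster of 6 thioesterase genes on chromosome 12, in the order *Acot2*, *Acot1*, *Acot4*, *Acot3*, *Acot5* and *Acot6*, which spans 123.5 kb. The coding sequences of *Acot1* and *Acot2* are identical at 95.6% of aligned bases, and those of *Acot1* and *Acot3* at 84%. A coding stretch of 72 bases from the longest identical run of *Acot1* and *Acot2* (273 bases) is shown because reads from it cannot be placed uniquely. Capitals mark bases that differ from *Acot1* (GRCm38, plus strand).
Acot1, chr12:84017106-84017177: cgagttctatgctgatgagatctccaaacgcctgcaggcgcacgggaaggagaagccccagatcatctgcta
Acot2, chr12:83992828-83992899: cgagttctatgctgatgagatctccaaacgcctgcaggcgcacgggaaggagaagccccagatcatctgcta
Acot3, chr12:84058753-84058824: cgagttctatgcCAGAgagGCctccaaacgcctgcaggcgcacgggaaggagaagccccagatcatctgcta
Acot4, chr12:84043523-84043594: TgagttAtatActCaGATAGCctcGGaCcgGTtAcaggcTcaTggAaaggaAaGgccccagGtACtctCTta
In this stretch *Acot2* has 0 differences from *Acot1*, *Acot3* has 6 and *Acot4* has 26. Windows of 50 bases that also occur in another gene made up 19.2% of *Acot1*, 27.7% of *Acot2* and 21.3% of *Acot3*. For *Pdk4* the share was 1.4%, and for the other 6 members it was 0. The authors counted uniquely mapped reads, so reads from windows that occur at separate places in the genome would be dropped. Many shared windows of *Acot3* were shared with genes that overlap it at the same locus, chiefly *Gm49366*, which is absent from the counts. A read from such an overlap alone maps to a single place. The 21.3% of *Acot3* therefore does not measure unplaceable sequence alone. Levels of the 3 *Acot* members are uncertain because of shared windows, and the share of reads lost was not measured. *Acot3* and *Acot4* also overlap an antisense gene, *4732463B04Rik*, with 44 to 366 counts per library, and the strand setting of the counting is not given in the sources used here.

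The sex difference was shared by the cluster. In WT livers *Acot4* had a male minus female log2 difference of -1.34 (SE 0.25, edgeR adjusted p = 3.68e-04) and *Acot6* of -1.10 (SE 0.19, adjusted p = 1.39e-04), so that all 5 genes of the cluster that passed the filter were lower in males. *Acot5* did not pass the filter. Per kb of exon, mean levels in female WT livers were 62.5 CPM for *Acot3*, 11.7 for *Acot1*, 8.55 for *Acot4*, 7.37 for *Acot2* and 0.551 CPM for *Acot6*. In male WT livers they were 8.73, 4.11, 3.39, 3.24 and 0.257 CPM per kb in the same order. *Acot3* stood well above its neighbours in females. In male WT livers its mean rests on mouse 5, without which it was 3.91 CPM per kb, below that of *Acot1*. Outside the cluster, *Acot12* (-0.50, SE 0.13, edgeR adjusted p = 0.0105) and *Acot13* (-0.53, SE 0.13, adjusted p = 0.00431) were also lower in WT males, while *Acot8*, a peroxisomal thioesterase, had 0.07 (SE 0.10).

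**Figure D4:**
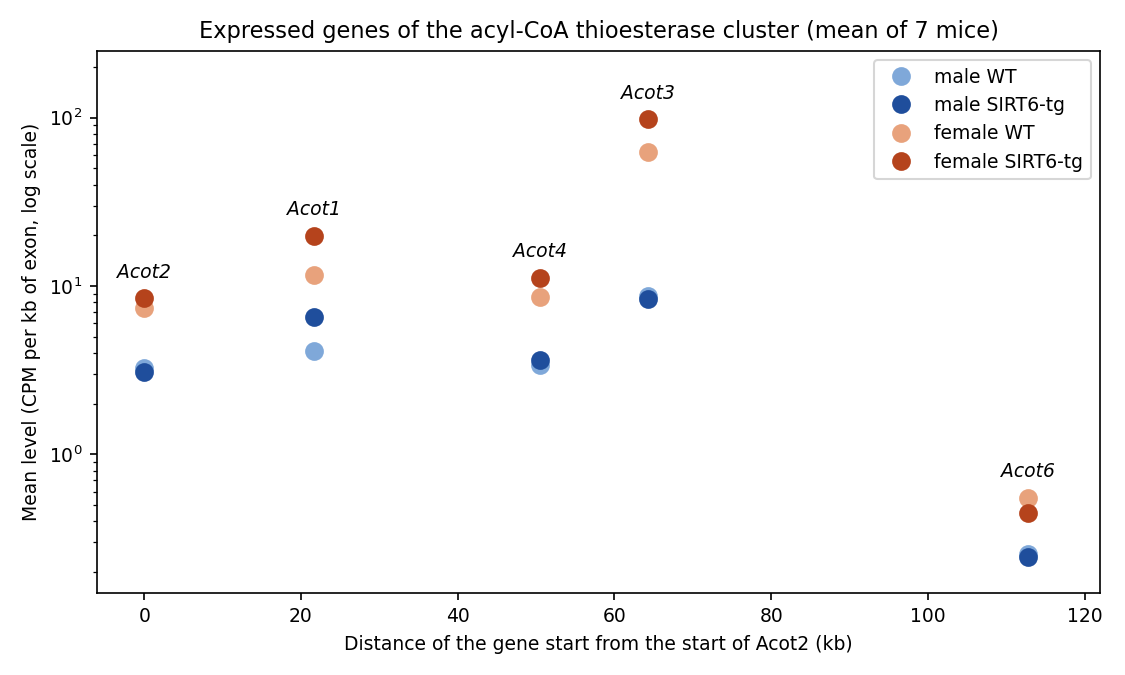
Mean level of each expressed gene of the thioesterase cluster (y axis, CPM per kb of exon on a log scale, 7 mice per point) against the distance of its start from that of *Acot2* (x axis, kb). The female points (orange and red-brown) lie above the male points (blue) at all 5 genes, with the widest gap at *Acot3* (62.5 against 8.73 CPM per kb in WT livers, the latter 3.91 without male WT mouse 5).

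Across the 10 members, the level per kb of exon in male WT livers ran from 4935 CPM for *Fabp1* through 23.7 for *Ppara*, 21.3 for *Angptl4*, 16.6 for *Cd36*, 15.98 for *Vnn1*, 8.73 for *Acot3* (3.91 without mouse 5), 4.11 for *Acot1* and 3.24 for *Acot2* down to 2.04 for *Pdk4* and 1.15 CPM for *Fgf21*. In female WT livers *Acot3*, at 62.5 CPM per kb, came right after *Fabp1* (5300), ahead of *Vnn1* (49.2) and *Cd36* (33.98). The receptor itself came next after *Fabp1* in male WT livers, while in female WT livers 5 of its targets stood above its 29.0 CPM per kb. In male WT livers *Ppara* and *Angptl4* lay closer together than the SD of either, as did *Cd36* and *Vnn1*.

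The members did not move as a block among mice of the same group. After the group means were removed from log2 CPM, 36 of 45 pairs had a positive Pearson r over the 28 libraries, with a median of 0.29, and 9 pairs had an r over 0.5. *Acot1* and *Acot2* gave the highest r, 0.844 (Spearman rho 0.838, and r 0.838 without the 2 farthest libraries), and these genes share read windows. *Ppara* had an r of 0.573 with *Vnn1* and 0.511 with *Cd36*, but 0.139 with *Acot1* and -0.344 with *Fabp1*. *Fgf21* had 0.607 with *Acot2* and 0.538 with *Pdk4*. Points from the same library share its depth and its scaling, so these values are descriptions.

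**Figure D5:**
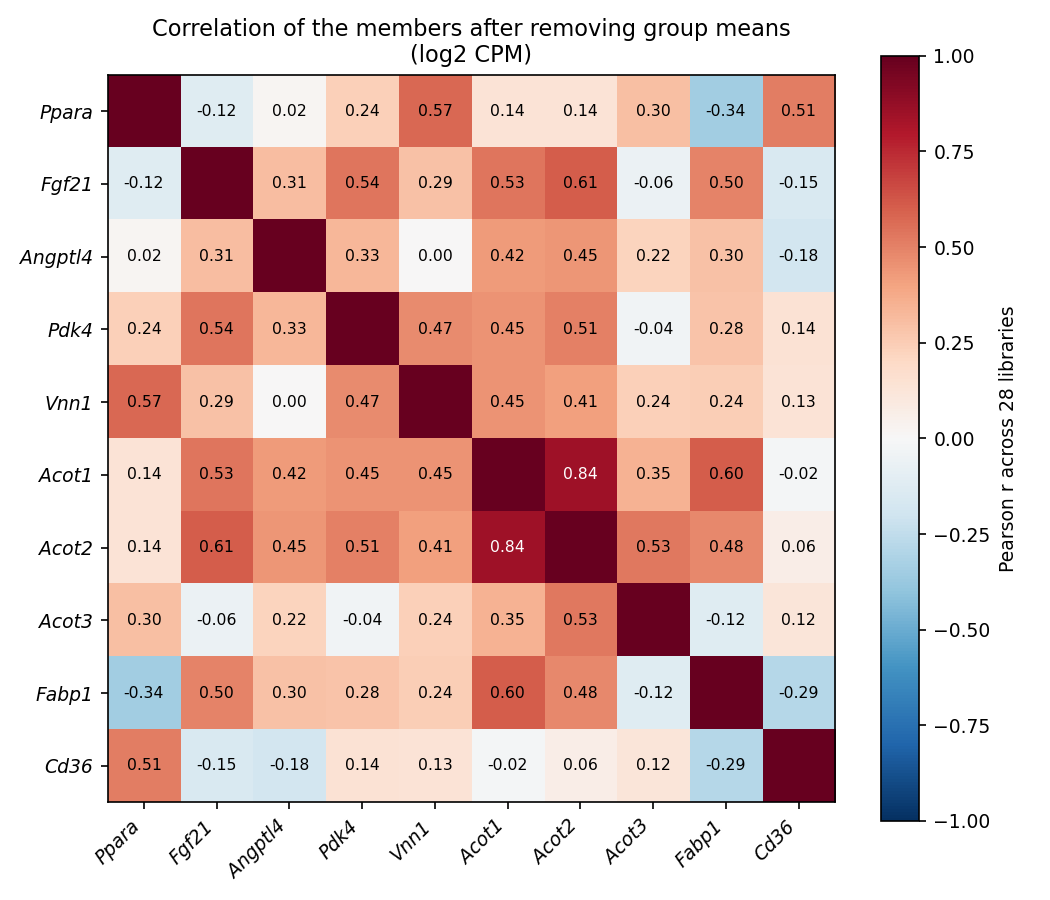
Pearson r between each pair of genes across the 28 libraries, from log2 CPM after removal of the 4 group means (colour scale from -1 to 1). The *Acot1* and *Acot2* pair at 0.84 is highest, and *Ppara* with *Fabp1* at -0.34 is lowest.

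Among 12247 genes compared in the same way, those most like each member were as follows. *Ppara* was closest to *Reep3* (r = 0.937), *Lcor* (0.931) and *Hipk2* (0.927). For *Vnn1*, *Fam20a* (0.778) and *Nbn* (0.759) were among the 3 closest. After each other, *Acot1* and *Acot2* were both closest to *Hadhb* (0.830 and 0.813), a subunit of the mitochondrial trifunctional protein, and to *Pex11a* (both 0.812), a peroxisome division factor. *Acot3* was closest to its neighbour *Acot4* (0.912), *Slc16a5* (0.783) and *Trim24* (0.758). *Angptl4* was closest to *Slc25a29* (0.833), *Lgals4* (0.791) and *Mfsd2a* (0.780), and *Fgf21* to *Lsm11* (0.754), *Tnfrsf12a* (0.748) and *Impa2* (0.724). *Pdk4* was closest to *Irak2* (0.705), *Ormdl3* (0.686) and *Fkbp14* (0.666), and *Cd36* to *Adam19* (0.736), *Sema3d* (0.718) and *Itga4* (0.713). For *Fabp1* the nearest was *mt-Rnr2* (0.910), a mitochondrial ribosomal RNA, followed by *Rab9* (0.903) and *Eci1* (0.873), an enzyme of unsaturated fatty acid oxidation. *Fabp1* also followed the summed hepatocyte secreted proteins (r = 0.642) and erythroid markers (r = 0.664) within groups. *Ppara* ran the other way, with r of -0.697 to erythroid, -0.640 to T cell and -0.638 to cholangiocyte markers. The part of these markers in the correlations was not tested.

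The partners of the receptor were read next. For the counts of this and the following lists, 9.68% of all genes tested were called higher in male tg livers and 11% lower. Of the 5 PPAR and RXR genes other than *Ppara*, 2 rose in male tg livers, *Pparg* with 0.65 (SE 0.16, edgeR adjusted p = 0.00309) and *Rxrb* with 0.26 (SE 0.08, adjusted p = 0.0196). With library size alone or hepatocyte scaling neither passed, and *Rxrb* turned slightly negative (lowest -0.03). *Ppard* had -0.14 (SE 0.14) and *Rxra*, the main hepatic RXR, 0.18 (SE 0.10). *Pparg* also differed in its genotype effect between the sexes (0.78, SE 0.22, edgeR adjusted p = 0.0324). Of 18 coregulators and upstream regulators 2 rose in males, *Creb3l3* (0.42, SE 0.12, edgeR adjusted p = 0.00989), a fasting transcription factor that acts with PPARα on *Fgf21*, and *Ppargc1b* (0.39, SE 0.14, adjusted p = 0.0467). *Ppargc1a*, the fasting coactivator, had -0.03 with genotype in males (SE 0.19) and was lower in WT males than in WT females (-0.97, SE 0.19, edgeR adjusted p = 5.49e-04).

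Around FGF21 and ANGPTL4, some partner genes were called in males, where 20.7% of all genes tested were called in either direction. Of 5 FGF21 receptor genes *Fgfr3* (0.37, edgeR adjusted p = 0.0306) and *Fgfr4* (0.27, adjusted p = 0.0485) rose, while *Klb*, the coreceptor β-Klotho, had 0.40 (SE 0.21, adjusted p = 0.185) and *Fgfr1* -0.39 (SE 0.20, adjusted p = 0.182). With library size alone and with hepatocyte scaling *Fgfr4* turned slightly negative (lowest -0.03). Of 6 genes of the angiopoietin-like and lipase list, *Angptl4* not counted, 3 rose and 1 fell. *Lipc*, hepatic lipase, rose by 0.55 (SE 0.09, edgeR adjusted p = 3.14e-05) without overlap. *Lpl* had -1.34 (SE 0.26, edgeR adjusted p = 3.45e-04), and *Angptl8* 0.79 (SE 0.34, adjusted p = 0.102). Of 9 other genes of the pyruvate dehydrogenase complex and its regulators, 3 rose and 2 fell in males. *Pdk3* (-1.43, edgeR adjusted p = 1.02e-04) and *Pdp1* (-0.94, adjusted p = 1.89e-04) fell and *Pdk1* (0.58, adjusted p = 0.00145) rose, while *Pdk2*, the main hepatic isoform beside *Pdk4*, had 0.32 (SE 0.13, adjusted p = 0.0892).

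Many fatty acid handling genes beyond the members rose in male tg livers, but such a rise was not particular to them. The median log2 fold change in males was also 0.43 for 13 lipogenic genes that feeding induces. For the 15 secreted hepatocyte proteins it was 0.37. In the uptake and activation list, without the members *Fabp1* and *Cd36*, 6 of 11 rose and 1 fell (median 0.28, all genes 0.06), among them *Slc27a2* (0.57, edgeR adjusted p = 3.28e-04), *Fabp2* (0.69, adjusted p = 0.00252), *Slc27a5* (0.45, adjusted p = 0.00298) and *Acsl1* (0.74, adjusted p = 0.00330). *Fabp4* had -0.45 (SE 0.38, adjusted p = 0.450). With both members in the list, 7 of 13 rose with TMM, 2 with library size alone and 1 with hepatocyte scaling, and the latter medians were -0.01 and -0.03. Of 15 mitochondrial targets of PPARα 12 rose and 1 fell, with a median of 0.46. *Cpt2* (0.52, edgeR adjusted p = 9.67e-05) and *Acadvl* (0.48, adjusted p = 2.06e-04) rose, while *Cpt1a* had 0.06 (SE 0.17). *Ucp2*, which is also expressed in Kupffer cells, fell by 1.15 (adjusted p = 5.29e-06). With library size alone 1 of the 15 rose and with hepatocyte scaling 0, while the median stayed positive (0.18 and 0.15, against -0.22 and -0.24 for all genes). Of 11 peroxisomal targets tested 4 rose (median 0.38), including *Acaa1b* (0.89, edgeR adjusted p = 1.03e-04) and *Hsd17b4* (0.40, adjusted p = 8.85e-04), and *Ehhadh* had 0.35 (SE 0.16, adjusted p = 0.124). With library size alone and with hepatocyte scaling 1 of the 11 rose, with medians of 0.10 and 0.08.

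The other lists were read in males in the same way. Among thioesterases that are not members, 3 of 8 tested rose and 1 fell, led by *Acot9* (-0.90, edgeR adjusted p = 4.01e-05), *Acot13* (0.56, adjusted p = 0.00172) and *Acot12* (0.40, adjusted p = 0.0314), and *Acot8* had 0.28 (SE 0.10, adjusted p = 0.0504). Of 7 vanin and pantothenate pathway genes other than *Vnn1*, *Vnn3* fell (-0.57, edgeR adjusted p = 1.43e-04) and *Coasy* rose (0.44, adjusted p = 0.00271). Of 7 genes of ω-oxidation *Aldh3a2* rose (0.52, edgeR adjusted p = 0.00341). *Cyp4a10* and *Cyp4a14*, classical targets of PPARα, had 0.40 (SE 0.34) and 0.66 (SE 0.52). Of 10 lipid droplet genes *Fitm1* rose (0.94, edgeR adjusted p = 0.0166), and *Plin2* had 0.45 (SE 0.20, adjusted p = 0.0992). Of 11 fasting genes of the glucocorticoid, CREB and FOXO pathways 0 were called (median -0.03). Of 13 lipogenic genes that feeding induces, 3 rose, *Me1* (0.85, edgeR adjusted p = 6.52e-05), *Srebf1* (0.66, adjusted p = 0.00227) and *Mlxipl* (0.43, adjusted p = 0.0404). With library size alone and with hepatocyte scaling 0 thioesterases and 0 ω-oxidation genes rose, 0 lipid droplet genes rose, and 1 lipogenic gene did. In females 0 genes of any of these lists were called, where 0.0278% of all genes were. Female medians were 0.22 for mitochondrial targets (15 of 15 positive) and 0.33 for peroxisomal targets (10 of 11 positive). They were 0.02 for the uptake and activation list without the members, -0.13 for lipid droplet genes and -0.09 for lipogenic genes (all genes 0.00).

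The female bias of the members extended to other lists in WT livers, among them some lists of PPARα targets. Over all genes tested, 5.71% were lower and 6.65% higher in males. Mitochondrial targets were lower in males in 8 of 15 cases and higher in 0, and peroxisomal targets in 5 of 11 and 0. Examples from these and from ω-oxidation are *Ehhadh* (-0.88, SE 0.16, edgeR adjusted p = 3.19e-04), *Cyp4a10* (-2.03, SE 0.35, adjusted p = 2.53e-04) and *Cyp4a14* (-3.02, SE 0.56, adjusted p = 5.24e-04). In ω-oxidation 4 of 7 genes were lower and 2 higher in males, the latter *Cyp4a12a* (5.45, edgeR adjusted p = 1.86e-05) and *Cyp4a12b* (6.86, adjusted p = 3.36e-09), which are known as male-biased. Lipid droplet targets did not share the bias, with 2 of 10 lower and 1 higher in males (median 0.11). Of the 8 thioesterases tested that are not members, 4 were lower in males. Median differences were -0.33 for mitochondrial and -0.36 for peroxisomal targets. Lists outside PPARα targets had similar medians. The 11 fasting genes of the glucocorticoid, CREB and FOXO pathways had -0.46 (2 lower, 0 higher). The 13 lipogenic genes had -0.28 (0 called) and the 15 secreted hepatocyte proteins -0.32. Part of this bias moved with scaling. Under hepatocyte scaling, where the median of all genes was 0.34, 2 of 15 mitochondrial targets were lower and 3 higher in males. Of the 15 secreted hepatocyte proteins 7 were lower in WT males, and 9 of 10 T cell markers were higher, with summed levels of 18.9 to 54.0 CPM against 7.18 to 22.3 CPM in WT females. Of 7 adipocyte markers tested 2 were higher in WT males and 0 lower. The part of these shifts in the sex differences of the members was not tested beyond the rescaling, under which the same 5 members kept their calls.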

How the data were processed

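Liver RNA of 28 mice was sequenced from NEBNext Ultra libraries as single-end reads on an Illumina HiSeq. The authors aligned reads with STAR 2.5.0a to mm10, ran HTSeq-count on the unique alignments with Gencode vM12, and deposited the raw read counts per gene, not normalized. Groups came from the labels. The 10 genes and all lists were chosen with earlier results of these data known. The genes named besides the members are the 3 most correlated with each, the 3 list members with the lowest adjusted p in males, and their direct partners. *Acot6*, *Cyp4a12a* and *Cyp4a12b* were named after their values were seen. Some genes that this rule names are not reported here. Genes with a mean of at least 0.5 size-factor-scaled counts were kept. Groups were compared with edgeR 4.0.16 in R 4.3.3 (TMM, robust quasi-likelihood fit of all 28 libraries, no covariates), which was tested on simulated data. DESeq2 1.42.0, other scalings, filters, sample sets and a replicate block were alternatives, and the fit without the libraries with muscle markers was added after seeing the data. Log2 CPM used a prior count of 2. Names and coordinates came from Gencode vM21, which gave a symbol to 49326 features. Of the 227 listed genes 226 were found. The labels do not say that replicate numbers pair the mice. Correlations of same-numbered deviations were -0.118 to 0.229 in males and -0.283 to 0.271 in females. Such values cannot exclude shared litters or cages, which the labels do not give and the fit did not include. P-values measure the spread between these libraries. Intervals are 95%, drawn from the SE by a normal approximation, and cover the fit's error only.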

Additional observations from a re-analysis of the deposited data

Results flagged for a closer look

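Among the 40 combinations of a member gene and a group of 7, 2 held a mouse far from the rest by Dixon's criterion. The criterion was a gap over range above 0.568, computed on log2 CPM, where chance flags about 1 in 20 groups. *Pdk4* in male WT mouse 4 was lowest, at 2.60 CPM with the next at 6.40 CPM (gap over range 0.695). *Acot3* in male WT mouse 5 was highest, at 129 CPM with the next at 25.2 CPM (gap over range 0.596), and that mouse also had the highest *Ppara* (144 CPM) and *Vnn1* (68.4 CPM) of the male WT group. Its library was the smallest of all, with 18758863 counts. Within male WT it had the highest summed hepatocyte secreted proteins (154200 CPM). Its summed T cell (18.9 CPM) and stellate cell and fibroblast markers (399 CPM) were the lowest there. The part of depth and cell content was not tested.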

How the results depend on the processing

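The 50 member results (10 genes in 5 comparisons) were recomputed under 1890 alternative values, of which 1828 kept their side of the threshold, 51 lost the call, 11 gained it and 0 reversed a called value. Of the 1828, 58 changed sign, none of them called. The number of members called in males fell from 2 to 1 under RLE size factors, upper-quartile scaling, library size alone, hepatocyte scaling, no filter, DESeq2, fitting only the groups compared, and without the libraries with muscle markers, in each case through *Angptl4*; leaving out 1 library gave 1 to 2 in males, 0 in females, 0 for the difference between the sexes, 4 to 7 for WT males against WT females, and 5 to 7 in tg mice. With the replicate number as a block the counts were 2, 0, 0, 5 and 7, the last because *Pdk4* in tg livers passed (-1.05, adjusted p = 0.0140); 0 of 7 male and 1 of 7 female pairs of the same number correlated best with each other, and the block changed no other call. Over all genes, female calls went from 6 to 44 with DESeq2, 19 with hepatocyte scaling, 2 with only the groups compared, 3 without the libraries with muscle markers and 3 to 16 with 1 library left out. Calls between WT sexes went from 2669 to 4212 with library size alone and 6404 with hepatocyte scaling, and calls for the difference between the sexes from 1089 to 1863 and 2395. Of the male genotype calls 46.8% were higher with TMM, 35.7% with RLE, 26.2% with upper quartile, 4.89% with library size alone and 4.02% with hepatocyte scaling. The same 3 nearest genes per member (30 of 30) were found with a prior count of 0.5. Depth limits *Fgf21* most, at 0.240 to 9.94 CPM.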
